A study of Mus musculus with 12 samples.

Results

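Ribosomal protein pseudogenes carried a measurable part of the counted RNA in mouse hypothalamus, and 102 of them were followed here through 12 libraries of a diabetes study. The 102 were the rows of the count table whose symbol begins with Rpl or Rps and contains -ps and whose mean over the 12 libraries was at least 1 CPM, that is counts scaled by the library total. They were chosen from 300 rows with such symbols, of which 72 had no counts in any library, and the whole table held 78334 rows. Of the 102, 62 were named after proteins of the large ribosomal subunit (Rpl) and 40 after proteins of the small subunit (Rps), and they belonged to 43 parent genes. Rpl17, Rpl31 and Rpsa had 6 each, and Rpl35a and Rps19 had 5 each. Because the mean level chose the members, their levels are given as a description without a test. Just inside the threshold lay Rps24-ps2 at 1.12 CPM, Rpl17-ps4 at 1.08 CPM and Rpl31-ps14 at 1.00 CPM. Outside it lay Rpsa-ps4 at 0.994 CPM and Rpl21-ps10 at 0.789 CPM.

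Ribosomes read mRNA into protein, and each of their subunits is built from ribosomal RNA and a fixed set of proteins that every cell must make in matched amounts. The mRNAs of these proteins are abundant and short, and reverse transcriptase of mobile elements has copied them back into mammalian genomes many times. Such a processed pseudogene has no introns, sits away from its parent, usually lacks the parent's promoter and is often close to the parent in sequence. Some are transcribed, but a read from a nearly identical parent mRNA can also align to the copy.

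All groups were male C57BL/6 mice, and whole hypothalamus, the brain region that controls feeding and hormone release, was profiled by RNA sequencing of poly-A RNA. Mice of the curcumin group (n = 3) received streptozotocin, a toxin of insulin-producing beta cells, at 70 mg/kg on postnatal day 2, from the age of 3 weeks ate a high-fat diet (60% of energy from fat) for 8 weeks, and were gavaged daily for 28 days with curcumin, a polyphenol of turmeric, at 50 mg/kg. Mice of the garlic group (n = 2) had the same streptozotocin and diet and were gavaged with aged garlic extract at 200 mg/kg. The diabetes group (n = 4) had streptozotocin, the diet and vehicle. The control group (n = 3) ate standard chow and received vehicle, and no injection is described for it, so streptozotocin and diet cannot be told apart in a comparison with control. The labels place the start of gavage both at week 7 of the diet and after 11 weeks on it. They number the libraries but do not say that these are separate mice, so the p-values reflect only how these libraries vary.

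The libraries held 12950017 to 30271706 counts. Scaled to the lowest depth, 20917 to 29126 genes were expected in curcumin libraries and 33125 to 34719 in garlic libraries, against 20133 to 22515 in diabetes and 25766 to 33157 in control. All 9 hypothalamic marker genes, such as Avp and Oxt, had counts in every group, though not in every library. Their summed level was 41.0 CPM in curcumin replicate 2 and 429 to 3288 CPM in the other libraries. In curcumin replicate 2, Six3 held 786 counts, Oxt 13, Pmch 9 and Avp 7. Otp held 4 counts there, Sim1 3, Rax 2, Nkx2-1 1 and Hcrt 0. Summed pituitary markers stood at 866 CPM in diabetes replicate 4 and at most 15.3 CPM elsewhere, and Lhb among them was at 0 in every library. Curcumin replicate 2 also had the highest sums of thalamus and oligodendrocyte markers. These stood at 980 and 8788 CPM, beside 454 to 879 and 3049 to 5743 CPM in the other libraries. Whether that library held the same tissue as the others was not tested. In whole tissue, fewer cells of a type and less RNA per cell cannot be told apart.

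How far a copy can be told from its parent depends on their sequences, so short stretches of 4 pairs are shown: an identical pair, the pair whose pseudogene rose in diabetes, and pairs with 5 and 7 differences. Each stretch is 150 bases, the length of a sequenced read, from the coding part of the transcript in GENCODE M21 (GRCm38). It is the stretch of the pair with the most differences, so reads from elsewhere can differ less. Capitals mark the bases at which a pseudogene and its parent differ.
Rps16-ps2: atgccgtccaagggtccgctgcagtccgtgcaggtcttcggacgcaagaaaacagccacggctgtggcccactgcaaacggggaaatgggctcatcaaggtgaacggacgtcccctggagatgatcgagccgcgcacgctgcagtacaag
Rps16: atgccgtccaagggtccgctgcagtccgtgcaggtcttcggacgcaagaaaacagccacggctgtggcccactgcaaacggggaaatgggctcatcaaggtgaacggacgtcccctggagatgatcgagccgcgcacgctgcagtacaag
Rpl34-ps1: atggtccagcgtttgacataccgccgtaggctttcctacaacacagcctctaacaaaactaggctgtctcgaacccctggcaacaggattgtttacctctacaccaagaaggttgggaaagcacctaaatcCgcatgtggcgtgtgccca
Rpl34: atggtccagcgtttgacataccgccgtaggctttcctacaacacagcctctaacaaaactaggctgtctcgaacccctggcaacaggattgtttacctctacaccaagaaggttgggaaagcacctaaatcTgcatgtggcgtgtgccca
Rps10-ps2: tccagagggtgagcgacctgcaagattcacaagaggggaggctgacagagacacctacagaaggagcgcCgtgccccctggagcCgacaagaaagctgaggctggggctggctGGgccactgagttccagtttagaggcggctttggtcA
Rps10: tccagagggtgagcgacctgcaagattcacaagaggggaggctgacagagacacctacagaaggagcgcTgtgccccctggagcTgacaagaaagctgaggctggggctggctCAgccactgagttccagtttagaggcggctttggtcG
Rps15-ps2: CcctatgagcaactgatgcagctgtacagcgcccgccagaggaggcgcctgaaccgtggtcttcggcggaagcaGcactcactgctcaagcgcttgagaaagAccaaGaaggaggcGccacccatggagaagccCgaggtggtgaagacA
Rps15: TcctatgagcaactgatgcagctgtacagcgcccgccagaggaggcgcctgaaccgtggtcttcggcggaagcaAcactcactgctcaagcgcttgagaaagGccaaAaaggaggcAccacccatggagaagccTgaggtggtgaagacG
Rps16-ps2 (chromosome 5) matched Rps16 (chromosome 7) over all of its 441 bases. Rpl34-ps1 (chromosome 6) differed from Rpl34 (chromosome 3) at 2 bases of the coding part, T132C and C318G, where the parent's base comes first and positions count from 1 at the A of the parent's start codon. Rps10-ps2 (chromosome 16) differed from Rps10 (chromosome 17) at 5 bases, all within the stretch shown. Of all 150-base windows of Rps10-ps2, 70.0% occur unchanged in Rps10. Rps15-ps2 (chromosome 6) differed from Rps15 (chromosome 10) at 10 bases, of which 7 are within the stretch shown.

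The copies as a group were intronless and near-identical to their parents. Every one of the 102 had 1 exon in GENCODE M21, while the parents had 4 to 10, and 4 lay on the parent's chromosome (Rps13-ps2, Rpl31-ps9, Rps7-ps2 and Rpl31-ps14). The annotation called 98 processed pseudogenes, 1 a transcribed processed pseudogene (Rpl10-ps1) and 3 protein coding (Rpl9-ps6, Rpl10-ps3 and Rpl36a-ps1). Median identity to the parent was 99.1% over the aligned bases, and 51 members reached at least 99%. 65 members kept a full-length reading frame, 29 of them with no residue changed. Rpl18-ps1 and Rps7-ps2 did not align over the parent's coding part. 14 members lay inside another gene on its strand, 26 inside a gene on the opposite strand and 63 in neither position, a member being able to count under both of the first groups.

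Many copies were counted far above their parents, although the parent is the gene that makes the ribosomal protein. Per kilobase of transcript, 60 of the 102 had a higher mean level than the parent. Rpl38-ps2 had the highest mean level per length, at 1045 CPM per kb, beside 9.61 CPM per kb for Rpl38, a large-subunit protein known in mouse for its part in translating Hox mRNAs. Rps16-ps2 stood at 712 CPM per kb beside 7.44 CPM per kb for Rps16, with the same sequence. Rpl19-ps11 stood at 756 CPM per kb beside 22.3 CPM per kb for Rpl19, which helps to bridge the subunits. The order was the other way for Rps15-ps2, at 161 CPM per kb beside 733 CPM per kb for Rps15, a protein of the small subunit near the decoding site.

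Copies with more of their sequence unchanged in the parent had higher levels. Each pseudogene was read in windows of 150 bases. A window counted as shared when the same bases occur in any annotated transcript of the parent gene. In 11 members every window was shared, and their median level was 361 CPM per kb, with 11 of 11 above the parent. In 19 members at least 50% were shared, with a median of 239 CPM per kb and 19 of 19 above the parent. In 52 members fewer than 50% but more than 0% were shared, with a median of 20.9 CPM per kb and 28 of 52 above the parent. In the 20 members with no shared window the median was 6.19 CPM per kb, and 2 of 20 stood above the parent. The copy's median share of the pair's summed level was 94.4, 93.6, 52.1 and 16.4% in the same order. The treatment of reads that match several places is not given in the sources used here, so the level of any row that shares windows with another is uncertain by itself. Windows can also be shared among copies: Rpl35a-ps6 had 18.5% of its windows in Rpl35a, but 100% in some other gene of the annotation.

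**Figure D1:**
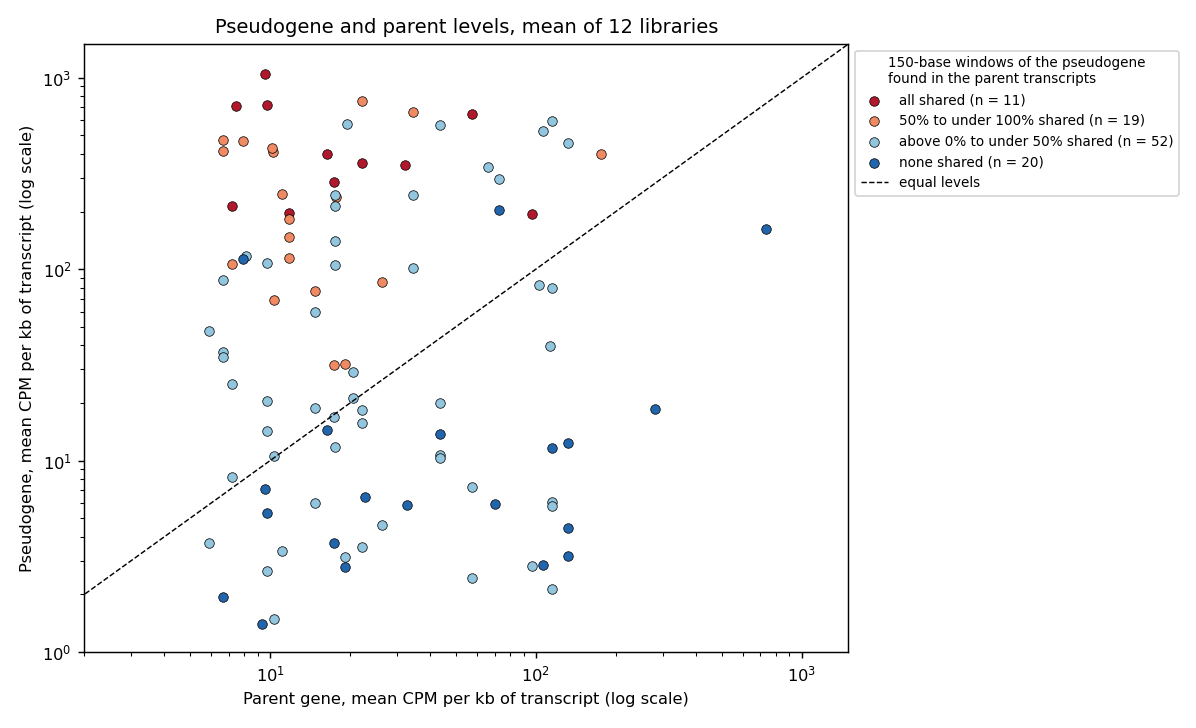
Mean level of each of the 102 pseudogenes (vertical axis) against that of its parent gene (horizontal axis) over 12 libraries, in CPM per kb of transcript on log scales; colours give the share of the pseudogene's 150-base windows found in the parent's transcripts and the dashed line marks equal levels. The 30 pseudogenes with at least 50% of windows shared all lie above the line, and 18 of the 20 with none shared lie below it.

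The 10 members of highest mean CPM came from both subunits. From here on, levels are CPM relative to library totals scaled by the TMM method, unless a mean over the 12 libraries is named. Rpl3-ps1, a copy of the large-subunit protein near the peptidyl transferase centre, averaged 799 CPM over the 12 libraries, beside 46.5 CPM for Rpl3. Rpsa-ps10 averaged 523 CPM, beside 184 CPM for Rpsa, a small-subunit protein also known as a laminin receptor precursor. Rps6-ps4 averaged 485 CPM, beside 50.6 CPM for Rps6, the small-subunit protein that S6 kinase phosphorylates. The others were Rpl19-ps11, Rps16-ps2, Rpl9-ps6, Rpl31-ps8, Rpl17-ps3, Rpl14-ps1 and Rps19-ps6, at means of 247 to 447 CPM. Of these, the copy nearest its parent was Rpl14-ps1, at 261 CPM beside 177 CPM for Rpl14. In all, 30 members averaged at least 100 CPM, 30 averaged 10 to 100 CPM and 42 averaged 1 to 10 CPM.

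Together the 102 copies took 0.453 to 1.62% of a library's counts and their 43 parents 0.116 to 0.356%. With curcumin, the copies of replicates 1 to 3 took 0.457, 0.700 and 0.728%, and with garlic those of replicates 1 and 2 took 0.453 and 0.825%. They took 1.19, 1.09, 1.35 and 1.62% in diabetes replicates 1 to 4 and 0.573, 0.682 and 0.766% in control replicates 1 to 3. Every diabetes library lay above every other library, and the ranges of the other 3 groups overlapped. The copies' share of the sum of copies and parents was 79.8 to 81.7% in curcumin and 77.8 to 78.9% in garlic, against 81.1 to 82.6% in diabetes and 78.4 to 80.6% in control. The ribosomal protein genes without a member copy took 0.509 to 0.825% in diabetes and 0.334 to 0.441% in control.

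**Figure D2:**
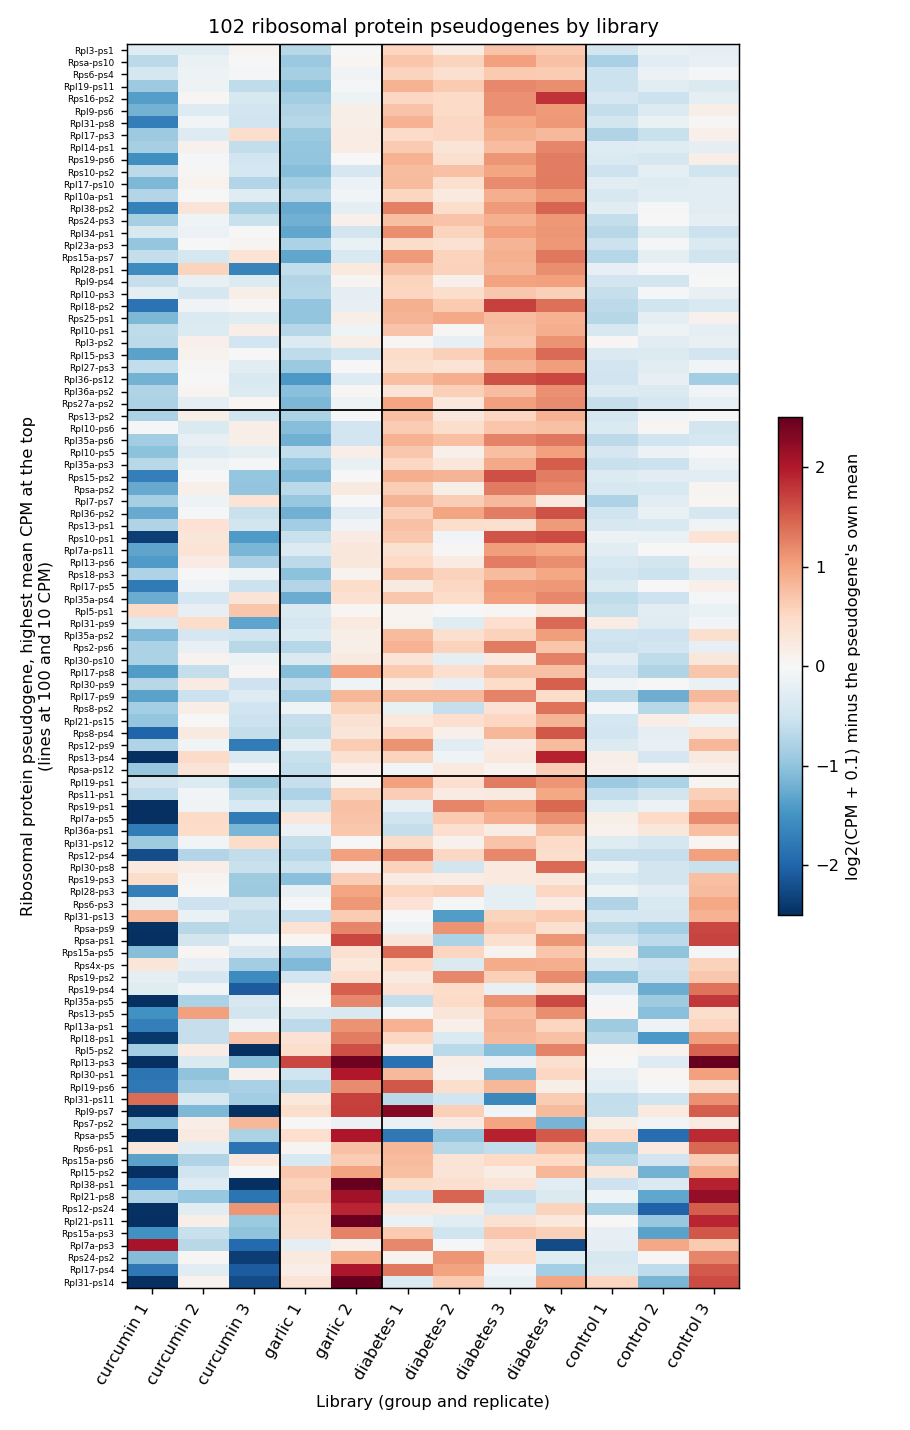
Level of each of the 102 pseudogenes (rows, highest mean at the top, lines at means of 100 and 10 CPM) in each of the 12 libraries (columns, by group), as log2(CPM + 0.1) minus the pseudogene's own mean, with red above and blue below it. The diabetes columns are red for most rows above the lower line, and below it the reddest columns are garlic 2 and control 3.

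Diabetes was set against control to see which copies differ in the diabetes model. Rpl34-ps1, a copy of a large-subunit protein, rose in diabetes, and it was the 1 member of 102 that passed edgeR's quasi-likelihood test with Benjamini-Hochberg adjustment over all 25562 genes tested, at a threshold of 0.05. The share of all genes called higher was 0.0156%. 0 members fell by edgeR, DESeq2 or limma-voom, beside 0% of all genes by edgeR. All 102 members had passed the filter on low counts. Rpl34-ps1 had 405, 267, 366 and 389 CPM in diabetes replicates 1 to 4, against 112, 146 and 123 CPM in control replicates 1 to 3. Every diabetes library was high and the groups did not overlap. The log2 change was 1.49 ± 0.24 (SE; mean ± SD 357 ± 62.1 CPM in diabetes, n = 4, and 126.9 ± 17.4 CPM in control, n = 3; adjusted p = 0.0460 by edgeR). Its parent Rpl34 had 15.5, 7.60, 11.5 and 12.2 CPM in diabetes, against 8.10, 5.75 and 11.9 CPM in control, and these ranges overlapped (log2 change 0.45 ± 0.52, adjusted p = 0.884). Of the read-length windows of Rpl34-ps1, 17.6% occur unchanged in Rpl34 and 59.5% in some other gene of the annotation. Because the treatment of reads with several matches is not given, the rise of this row cannot be assigned to this copy alone.

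The next 3 members by p did not pass. Rpl35a-ps6, a copy of a large-subunit protein altered in some human Diamond-Blackfan anaemia, had 129.8, 119, 167 and 177 CPM in diabetes, against 45.1, 49.9 and 52.0 CPM in control (log2 change 1.60 ± 0.27, adjusted p = 0.0513). Rps10-ps2, a copy of a small-subunit protein, had 358, 345, 415 and 504 CPM in diabetes, against 146, 179 and 148 CPM in control (log2 change 1.36 ± 0.24, adjusted p = 0.0791). Rpl36-ps12, a copy of a large-subunit protein, had 157, 175, 283 and 299 CPM in diabetes, against 65.9, 80.9 and 50.9 CPM in control (log2 change 1.79 ± 0.33, adjusted p = 0.0791). In each of the 3, every diabetes library lay above every control library. The parents Rpl35a and Rps10 overlapped between the groups, at 9.01 ± 0.554 CPM in diabetes and 9.71 ± 6.63 CPM in control for Rpl35a and at 4.56 ± 0.583 CPM in diabetes and 4.34 ± 1.65 CPM in control for Rps10 (SD, n = 4 and 3). Rpl36 did not overlap, at 46.4 ± 11.0 CPM in diabetes and 23.4 ± 4.08 CPM in control (log2 change 0.99 ± 0.33, adjusted p = 0.282).

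Across the copies, 85 had a higher and 17 a lower fitted level in diabetes, with a median log2 change of 0.82, beside a median of -0.07 over all genes. At an unadjusted p under 0.05, 48 members (47.1%) were higher and 0 lower, beside 4.79% of all genes higher and 7.48% lower. In 49 members every diabetes library lay above every control library and in 0 every one lay below, beside 5.78 and 8.94% of all genes. By level, of the 30 at 100 CPM or more, 30 were higher at an unadjusted p under 0.05 (median log2 change 1.10), of the 30 at 10 to 100 CPM 17 (median 0.88) and of the 42 at 1 to 10 CPM 1 (median 0.07). Large-subunit Rpl19-ps11 had 721, 621, 916 and 891 CPM in diabetes, against 274, 326 and 308 CPM in control. Small-subunit Rps16-ps2 had 380.3, 372, 584 and 935 CPM in diabetes, against 198, 182 and 227 CPM in control. Both were high in every diabetes library, and neither passed (log2 change 1.38 ± 0.27 with adjusted p = 0.0791 for Rpl19-ps11, and 1.49 ± 0.35 with adjusted p = 0.125 for Rps16-ps2, by edgeR).

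The count of members called in diabetes against control depended on the test and the libraries: DESeq2 called 42 higher of the 57 members to which it gave an adjusted p, limma-voom 48 of 102 and edgeR without the filter on low counts 35 of 102. Of all genes with an adjusted p, these fits called 4.66, 2.83 and 0.715% higher in that order. None of the 3 called a member lower, beside 0.52, 1.77 and 0.217% of all genes. It was 0 with the stricter filter, with detected genes as a covariate, without any 1 control or diabetes library or without curcumin replicate 3, and 14, 11, 26 and 24 without curcumin replicates 1 and 2 and garlic replicates 1 and 2. Other measures moved with the groups: summed markers of blood stood at 264 to 1755 CPM in diabetes and 87.5 to 196 CPM in control with all 5 detected, and those of neurons at 1167 to 1285 CPM in diabetes and 1640 to 1803 CPM in control with all 3 detected. Their part in the levels of the copies, and that of the lower number of detected genes in diabetes, was not tested. For the fits with a stricter filter, a covariate or libraries left out, the share of all genes called was not counted.

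The parent rows were also read alone. Of the 43, 1 rose, Rps2, a small-subunit protein, at 185, 162, 231 and 168 CPM in diabetes, against 60.9, 62.3 and 71.0 CPM in control (log2 change 1.53 ± 0.23, adjusted p = 0.0325 by edgeR). 0 fell by edgeR, 14 were higher and 0 lower at an unadjusted p under 0.05, and the median log2 change was 0.20. DESeq2 called 6 of the parents higher and limma-voom 11, and 0 lower. Because a parent and its copies share sequence, the counts of each parent and of all its Rpl or Rps pseudogenes (299 rows) were also added before the fit, which then ran on 25427 rows. Of the 43 sums 1 passed, that of Rps2 (1.46 ± 0.23, adjusted p = 0.0443 by edgeR). At an unadjusted p under 0.05, 34 sums were higher, 42 had a higher fitted level and the median log2 change was 0.98. For this fit neither the share of all rows called nor their median change was counted. The Rps10 sum had a log2 change of 1.29 ± 0.27 (adjusted p = 0.104), beside 0.07 for the parent row. The Rps16 sum had 1.45 ± 0.35 (adjusted p = 0.144), beside 0.05. The sum of Rps15, whose parent row is the larger, had 1.48 ± 0.35 (adjusted p = 0.144), beside 1.47.

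**Figure D3:**
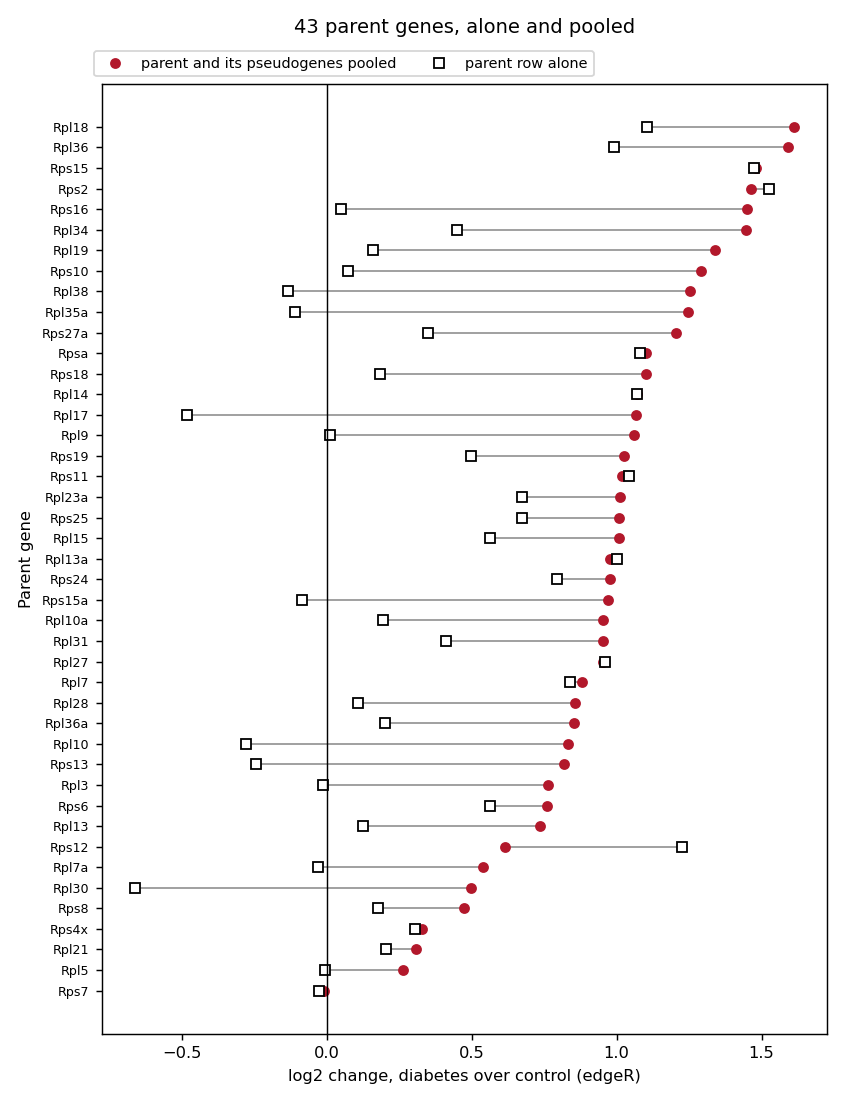
Log2 change of diabetes over control by edgeR for each of the 43 parent genes, with the counts of the parent and its pseudogenes added (filled circles) and for the parent row alone (open squares). The pooled values lie right of 0 for 42 of 43 and have a median of 0.98, beside 0.20 for the parent rows.

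Other ribosomal protein genes and some further mRNAs gave a setting for these counts. The ribosomal protein genes were listed by symbol, so symbols with an added l, such as Rps4l, Rpl6l and Rpl7l1, are among them. Of 41 ribosomal protein genes that had no member copy and passed the filter, 0 passed the test in diabetes against control by edgeR, 19 were higher and 0 lower at an unadjusted p under 0.05, and the median log2 change was 0.64. DESeq2 called 11 of them higher and limma-voom 17. The smallest p values belonged to Rps4l (94.8 ± 18.2 CPM in diabetes and 37.9 ± 3.05 CPM in control, adjusted p = 0.0791) and Rps14 (345 CPM in diabetes and 131 CPM in control, adjusted p = 0.122). A further list held 18 mRNAs that share the terminal oligopyrimidine tract of ribosomal protein mRNAs. It held translation factors and also other genes, such as Npm1, Nap1l1 and Hnrnpa1. By edgeR 0 of the 18 passed, 4 were higher and 0 lower at an unadjusted p under 0.05, and the median was 0.30. DESeq2 called 3 of them higher and limma-voom 5. The smallest p values there were those of Rack1, a scaffold on the small subunit (log2 change 0.88 ± 0.22, adjusted p = 0.142), and Eef1b2, an exchange factor of elongation (0.99 ± 0.25, adjusted p = 0.145).

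Curcumin was set against diabetes to see what the compound changes in the diabetes model. This comparison shares the diabetes libraries with the one above and with that of garlic, so their values are not independent of each other. 4 members fell with curcumin by edgeR: Rpl19-ps11, Rpl36-ps2, Rps10-ps2 and Rps15-ps2, each with an adjusted p of 0.0460, beside 0.0861% of all genes lower. 0 rose, beside 0.00391% of all genes higher by edgeR. Members higher at an unadjusted p under 0.05 numbered 0, beside 10.5% of all genes. DESeq2, limma-voom and edgeR without the filter also called 0 members higher, beside 1.71, 0.0313 and 0.95% of all genes.

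Of the large-subunit copies, Rpl19-ps11 had 211, 363 and 255 CPM in curcumin replicates 1 to 3, against 721, 621, 916 and 891 CPM in diabetes replicates 1 to 4 (log2 change -1.51 ± 0.27). Rpl36-ps2 had 22.0, 51.8 and 35.9 CPM in curcumin, against 80.0, 106, 129 and 159.6 CPM in diabetes (-1.70 ± 0.31). In both, every curcumin library was low and the groups did not overlap. Of the small-subunit copies, Rps10-ps2 had 132, 212 and 154 CPM in curcumin, against 358, 345, 415 and 504 CPM in diabetes (-1.29 ± 0.24). Rps15-ps2 had 17.7, 58.7 and 29.9 CPM in curcumin, against 109.7, 106, 178 and 142 CPM in diabetes (-1.92 ± 0.35). Here too the groups did not overlap, and curcumin replicate 1 was the lowest of its group in all 4.

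The parents of the 4 fell into unlike patterns in curcumin against diabetes. Rps15 (log2 change -1.81 ± 0.36, adjusted p = 0.0541) and Rpl36 (-1.60 ± 0.34, adjusted p = 0.0625) stood close to their copies in size of change. Rps15 had 85.3, 322 and 175 CPM in curcumin, against 590.5, 458, 844 and 829.8 CPM in diabetes. Rpl19 was at 13.3 ± 2.10 CPM in curcumin and 18.3 ± 2.90 CPM in diabetes (-0.46 ± 0.37, adjusted p = 0.598). Rps10 was listed at 0 counts in curcumin replicate 1 and had 4.07 and 5.15 CPM in the other 2, against 4.17 to 5.43 CPM in diabetes.

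Across the copies, 97 had a lower and 5 a higher fitted level with curcumin than in diabetes, with a median log2 change of -1.17, beside 0.07 over all genes. At an unadjusted p under 0.05, 63 (61.8%) were lower, beside 6.71% of all genes. In 59 the groups did not overlap, the curcumin libraries being lower, beside 4.19% of all genes. The medians were -1.18, -1.17 and -1.11 at 100 CPM or more, 10 to 100 CPM and 1 to 10 CPM. Of the 43 parents 0 passed by edgeR, with 20 lower and 0 higher at an unadjusted p under 0.05 and a median of -0.86, while DESeq2 called 11 lower and limma-voom 1. Of their sums with the copies 1 fell, that of Rpl19 (-1.48 ± 0.27, adjusted p = 0.0468). At an unadjusted p under 0.05, 41 sums were lower, and the median was -1.12. Of the 41 ribosomal protein genes without a member copy, 1 fell, Rps4l, at 32.3 ± 7.42 CPM in curcumin and 94.8 ± 18.2 CPM in diabetes (adjusted p = 0.0452). Of the 18 other mRNAs listed for that tract 0 passed by edgeR, with 7 lower and 0 higher at an unadjusted p under 0.05. DESeq2 called 2 of them lower and limma-voom 0. DESeq2 called 47 members lower in curcumin, limma-voom 13 and edgeR without the filter 44, beside 2.95, 0.45 and 1.3% of all genes, and 27 were called with detected genes as a covariate. By edgeR the stricter filter left 0, as did leaving out any 1 control library, diabetes replicate 1, 3 or 4, or curcumin replicate 1 or 3, and it called 10, 45, 39 and 38 without diabetes replicate 2, curcumin replicate 2, garlic replicate 1 and garlic replicate 2. Summed blood markers were at 122 to 504 CPM and summed neuron markers at 1270 to 2542 CPM in curcumin, the highest of each in replicate 2, beside the diabetes ranges given above. Summed hypothalamic markers stood at 429, 41.0 and 1317 CPM in curcumin replicates 1 to 3, against 1822 to 3288 CPM in diabetes, without overlap. The part of these markers in the levels of the copies was not tested. For the fit of the sums and those with a covariate, a stricter filter or libraries left out, the share of all genes called was not counted.

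**Figure D4:**
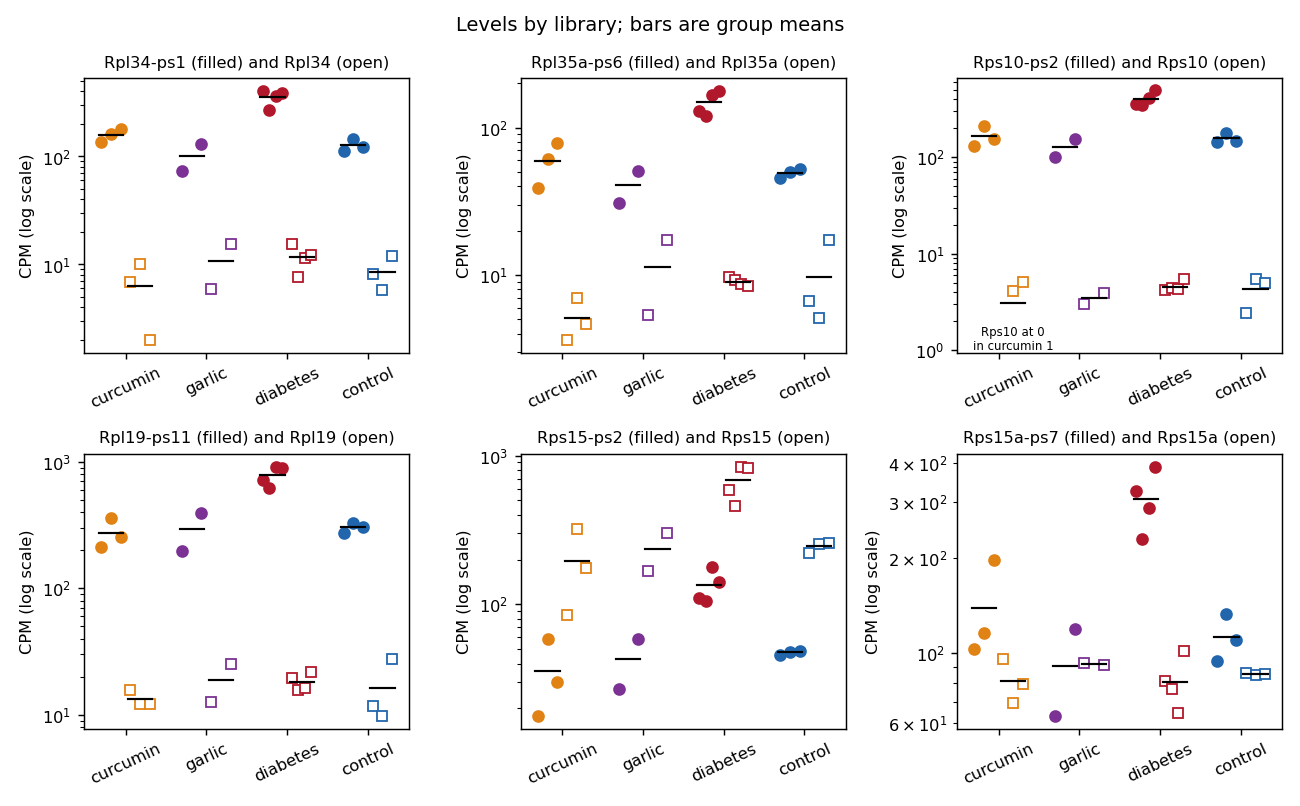
Levels in CPM (log scale) of 6 pseudogenes (filled circles) and their parents (open squares) in every library of the curcumin, garlic, diabetes and control groups, with bars at group means; a level of 0 is written in. The 6 pseudogenes are highest in the diabetes libraries, and of the 6 parents Rps15 shows the same order of group means as its copy.

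Garlic, with 2 libraries, was set against diabetes in the same way. 0 members passed in either direction by edgeR, with 46 (45.1%) lower and 1 (0.98%) higher at an unadjusted p under 0.05, while DESeq2 called 36 lower of the 55 members to which it gave an adjusted p and limma-voom 36 of 102, beside 4.33 and 1.4% of all genes. Of all genes 0% were called in either direction and 4.03% were lower and 6.9% higher at an unadjusted p under 0.05. The smallest p values belonged to Rpl34-ps1, Rpl35a-ps6, Rps10-ps2 and Rps15a-ps7. Rpl34-ps1 had 72.8 and 131 CPM in garlic replicates 1 and 2, against 405, 267, 366 and 389 CPM in diabetes (log2 change -1.81 ± 0.29, adjusted p = 0.0892). Rpl35a-ps6 had 30.7 and 50.8 CPM in garlic, against 129.8, 119, 167 and 177 CPM in diabetes (-1.86 ± 0.32, adjusted p = 0.0892). Rps10-ps2 had 100.3 and 156 CPM in garlic, against 358, 345, 415 and 504 CPM in diabetes (-1.66 ± 0.28, adjusted p = 0.0892). Neither group overlapped the other in these 3, and garlic replicate 1 was the lower garlic library in each.

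Across the copies, 78 had a lower and 24 a higher fitted level with garlic than in diabetes, with a median log2 change of -0.84, beside 0.07 over all genes. In 44 every garlic library lay below every diabetes library and in 3 above, beside 7.52 and 13.2% of all genes. By level the medians were -1.16 at 100 CPM or more, -0.95 at 10 to 100 CPM and 0.09 at 1 to 10 CPM. Of the 43 parents 0 passed by edgeR, with 9 lower and 0 higher at an unadjusted p under 0.05 and a median of -0.36, while DESeq2 and limma-voom each called 6 lower. Of the sums 0 passed by edgeR, with 34 lower and 0 higher at an unadjusted p under 0.05 and a median of -1.05. Without the filter on low counts edgeR called 27 members lower, beside 0.552% of all genes, and without curcumin replicate 1, curcumin replicate 2 or garlic replicate 2 it called 9, 11 or 12. Without garlic replicate 1 or 2 that group has 1 library, which is then assumed to vary like the other groups. Summed markers also differed without overlap: blood stood at 115 to 154 CPM in garlic and 264 to 1755 CPM in diabetes, neurons at 1634 to 1844 CPM in garlic and 1167 to 1285 CPM in diabetes, and oligodendrocytes at 5120 to 5366 CPM in garlic and 3610 to 4567 CPM in diabetes, with every marker of the 3 lists detected. Their part in the levels of the copies was not tested. For the fit of the sums and those with libraries left out, the share of all genes called was not counted.

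The treated groups were also set against control, the mice without the diabetes model. By edgeR 0 members passed with curcumin, beside 0% of all genes. 1 was higher and 3 were lower at an unadjusted p under 0.05, beside 1.06 and 1.28% of all genes. DESeq2 and limma-voom called 0 members, beside 0.0199% of all genes by DESeq2, all lower, and 0% by limma-voom. Rpl5-ps1, a copy of a large-subunit protein that can bind the p53 regulator Mdm2, had 57.0, 35.7 and 66.3 CPM in curcumin, against 27.9, 33.9 and 36.5 CPM in control, and the groups overlapped (log2 change 0.69 ± 0.26, adjusted p = 1.00). The other 3 were sparse: Rpl9-ps7 had 1, 10 and 2 counts in curcumin, against 18, 26 and 79 counts in control, Rpl13-ps3 had 1, 24 and 14 counts in curcumin, against 37, 22 and 212 counts in control, and Rpsa-ps9 stood at 1.96 ± 1.12 CPM in curcumin and 6.06 ± 6.34 CPM in control (SD, n = 3 each). Control replicate 3 was the high library in each of these 3. Without curcumin replicate 2, edgeR called 1 member lower in curcumin. In 0 members every curcumin library lay above every control library and in 4 below, beside 2.82 and 5.84% of all genes. The median over the 102 was -0.26, and -0.53 without curcumin replicate 2.

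By edgeR 0 members passed with garlic against control, with 0 higher and 0 lower at an unadjusted p under 0.05 and 0 by DESeq2 or limma-voom, beside 0% of all genes called and 0.0782% higher and 0.0313% lower at an unadjusted p under 0.05. The smallest p belonged to Rpl10-ps6, a copy of a protein that joins the large subunit late in its assembly, at 42.4 and 63.7 CPM in garlic, against 69.2, 92.2 and 64.8 CPM in control (log2 change -0.51 ± 0.27, adjusted p = 1.00). The garlic libraries were both lower, by a margin smaller than the spread within each group. Rpl34-ps1 (-0.32 ± 0.28), Rpl38-ps2 (-0.48 ± 0.44) and Rps10-ps2 (-0.30 ± 0.28) overlapped between the groups. In 0 members both garlic libraries lay above every control library and in 2 below, beside 6.65 and 6.11% of all genes. The median over the 102 was 0.01.

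Whether a copy moved apart from its parent was tested on the log2 ratio of their CPM (prior count 2) with limma over all 255 pseudogene and parent pairs of the table that passed the filter, ribosomal or not. In garlic against diabetes 1 member ratio fell, that of Rps15a-ps7, beside 0.392% of all pairs lower, a share that is this 1 pair. Rps15a-ps7 is a copy of a small-subunit protein whose reading frame ends after 37 of 130 codons. It had 63.0 and 119 CPM in garlic, against 325, 230.3, 288 and 389 CPM in diabetes, while Rps15a had 92.6 and 91.6 CPM in garlic, against 81.4, 76.8, 64.2 and 102 CPM in diabetes. The log2 ratio was -0.55 and 0.38 in garlic, against 2.00, 1.58, 2.16 and 1.94 in diabetes. The copy was low in both garlic libraries, and the parent's ranges overlapped. The ratio changed by -2.01 ± 0.39 (adjusted p = 0.0425 by limma). The ratios of Rpl35a-ps6 (-1.98 ± 0.48), Rpl10-ps6 (-1.87 ± 0.50) and Rps16-ps2 (-1.61 ± 0.45) did not pass, each with an adjusted p of 0.115. Of the 102 ratios, 28 (27.5%) were lower and 2 (1.96%) higher at an unadjusted p under 0.05, beside 12.5 and 8.24% of all pairs. All pairs include the members. Of the 120 non-ribosomal pairs, 3.33% were lower and 6.67% higher. Of the 33 pairs of ribosomal protein pseudogenes under 1 CPM, 0% were lower and 33.3% higher. The median change was -0.51 over the members and 0.06 over all 255 pairs. It was 0.14 over the non-ribosomal pairs and 1.69 over the ribosomal pairs under 1 CPM. With a prior count of 0.5 the adjusted p passed for 0 members, and it passed for 0 with detected genes as a covariate and without control replicate 1 or 2, any 1 diabetes library, curcumin replicate 2 or either garlic library, while 3 member ratios passed without the filter on low counts and 2 without control replicate 3.

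In diabetes against control 0 member ratios passed by limma, beside 0% of all pairs. Without adjustment, 26 (25.5%) had a p under 0.05 and were higher and 1 (0.98%) was lower, beside 11.8 and 4.31% of all pairs, members included. Of the non-ribosomal pairs, 3.33% were higher and 5% lower. Of the ribosomal pairs under 1 CPM, 0% were higher and 12.1% lower. The smallest p was again that of Rps15a-ps7, with log2 ratios of 2.00, 1.58, 2.16 and 1.94 in diabetes, against 0.13, 0.64 and 0.35 in control (change 1.55 ± 0.35, adjusted p = 0.121). Rps15a stood at 81.0 ± 15.6 CPM in diabetes and 85.8 ± 0.572 CPM in control (SD, n = 4 and 3), and its ranges overlapped. Rpl35a-ps6, Rpl30-ps10 and Rpl19-ps1 had ratio changes of 1.48 ± 0.42, 1.22 ± 0.38 and 1.21 ± 0.41, with adjusted p values of 0.223, 0.269 and 0.269. The median ratio change of the 102 was 0.49, beside -0.01 over all 255 pairs. It was -0.15 over the non-ribosomal pairs and -1.03 over the ribosomal pairs under 1 CPM. 1 member ratio passed without curcumin replicate 1.

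In curcumin against diabetes 0 member ratios passed by limma, beside 0% of all pairs. Without adjustment, 0 had a p under 0.05 and were higher and 17 (16.7%) were lower, beside 5.1 and 8.24% of all pairs, members included. Of the non-ribosomal pairs, 10.8% were higher and 2.5% lower. Of the ribosomal pairs under 1 CPM, 0% were higher and 3.03% lower. The smallest p was that of Rpl7a-ps11, a copy of a large-subunit protein, with log2 ratios of 0.98, 2.37 and 1.11 in curcumin, against 2.97, 4.05, 3.11 and 3.14 in diabetes (change -1.83 ± 0.38, adjusted p = 0.0758). Rpl28-ps1 (-1.82 ± 0.47), Rpl7a-ps5 (-2.76 ± 0.80) and Rps15a-ps7 (-1.20 ± 0.35) had adjusted p values of 0.106, 0.167 and 0.167. In Rpl7a-ps11 the groups did not overlap, and curcumin replicate 2 was the curcumin library nearest to diabetes. Without that library 5 member ratios passed.

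The copies also differed among themselves in how they varied over the 12 libraries. Among the 30 copies at 100 CPM or more, 20 peaked in diabetes replicate 4 and 8 in replicate 3 of that group, and 17 had their lowest in garlic replicate 1 and 12 in curcumin replicate 1. Among the 42 at 1 to 10 CPM, 15 were highest in garlic replicate 2 and 11 in control replicate 3, and 24 were lowest in curcumin replicate 1. The median deviation from each copy's own mean, as log2(CPM + 0.1), was 1.05 in garlic replicate 2 and 1.03 in control replicate 3 for these 42, while for the copies at 100 CPM or more it was -0.04 and -0.23 in the same libraries. The parent rows under 10 CPM shared the second pattern in part: 5 of 16 were highest in control replicate 3 and 3 in garlic replicate 2, and the 7 parents at 100 CPM or more were each highest in a diabetes library.

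**Figure D5:**
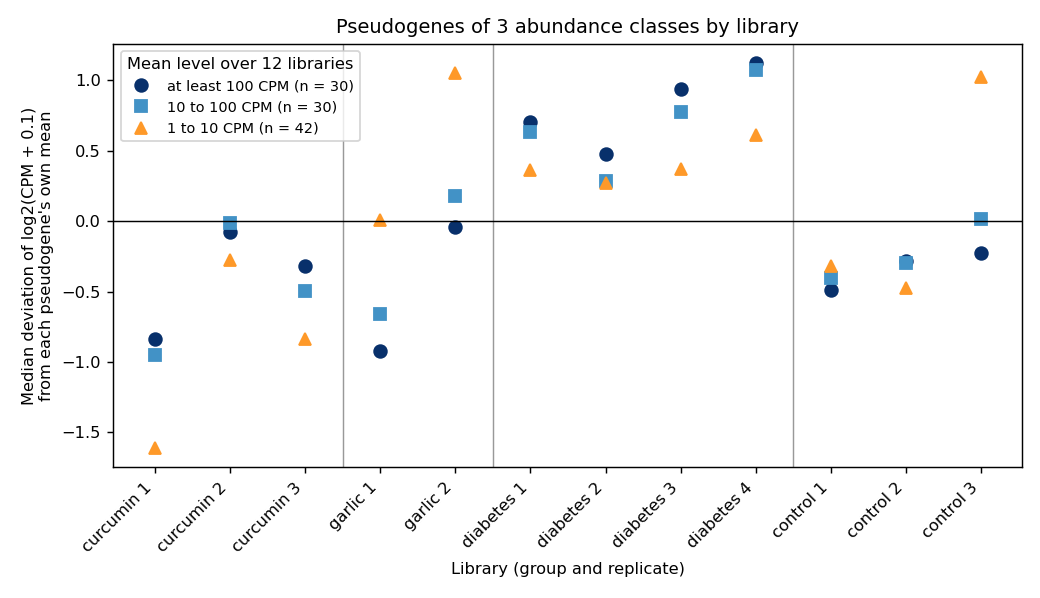
Median deviation of log2(CPM + 0.1) from each pseudogene's own mean (vertical axis) in each of the 12 libraries (horizontal axis, by group), for the 30 pseudogenes at 100 CPM or more (circles), the 30 at 10 to 100 CPM (squares) and the 42 at 1 to 10 CPM (triangles). All 3 classes lie above 0 in the 4 diabetes libraries, and the sparse class also lies at 1.05 in garlic 2 and 1.03 in control 3.

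Likeness to the parent is given as a description, as Pearson's r of log2(CPM + 0.1) over the 12 libraries, which share depth and group with both rows. It was highest for Rps15-ps2 at 0.99, Rpsa-ps10 at 0.95 and Rpl36-ps2 at 0.94. It was lowest for Rps18-ps3 at -0.27, Rpl10-ps6 at -0.24 and Rps15a-ps7 at -0.23. Over the 102 the median was 0.47, with 11 below 0. Rps15-ps2 and Rpl36-ps2 had no 150-base window in common with the parent, whereas Rpl10-ps6 had 69.6% of its windows in Rpl10, and Rps15a-ps7 had 25.5% in Rps15a.

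Sets of copies with more sequence in common with the parent also differed from control by more in diabetes, but they were the more abundant ones. The median log2 change in diabetes against control was 0.98 for the 11 with every window shared (median level 166 CPM), 1.02 for the 19 with at least 50% shared (141 CPM), 0.71 for the 52 with less (10.4 CPM) and 0.16 for the 20 with none (3.49 CPM). The median change of the ratio to the parent was 0.81, 1.06, 0.37 and -0.06 in the same order. In curcumin against diabetes the median log2 changes of the copies were -1.04, -1.16, -1.22 and -1.08 in that order. Within a class of level the order was not the same. Of the 30 copies at 100 CPM or more, the median log2 change in diabetes against control was 1.01 for the 10 with every window shared, 1.07 for the 11 with at least 50% shared and 1.16 for the 9 with less. At 10 to 100 CPM it was 0.80 for the 8 with at least 50% shared, 0.94 for the 17 with less and 1.28 for the 4 with none, and the 1 copy with every window shared stood at 0.78. At 1 to 10 CPM it was 0.024 for the 26 with some but less than 50% shared and 0.10 for the 16 with none. These differences between sets of copies were not tested.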

How the data were processed

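Hypothalamic RNA of 12 mouse libraries was measured, and read counts per gene were deposited by the authors as 1 table. Per the submitters' processing notes, FastQC, featureCounts and the GRCm39 mouse genome were used. Not given in the sources used here are the aligner, how strand and reads with several matches were handled, and which annotation release was counted. Per the labels' protocols, libraries were stranded and poly-A selected.

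Symbols came from a reference table of gene IDs and names (65.7% of 78334 IDs matched; the other rows held 2.23% of counts). Transcripts, exons and host genes came from GENCODE M21, whose build is GRCm38, so no coordinates are given. Pseudogenes were aligned to the parent's coding transcripts (match 2, mismatch -3, gap opening -5, gap extension -2).

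Counts were filtered with filterByExpr by group, scaled by TMM and fitted as 1 model of 4 groups in R 4.3.3 with the quasi-likelihood functions of edgeR 4.0.16 (glmQLFit, glmQLFTest). The filter left 25562 genes, over which p-values were adjusted by Benjamini-Hochberg at 0.05. Standard errors are those of log2 changes. Ratios of pseudogene to parent were tested with limma 3.58.1 (lmFit, eBayes with trend). Both scripts were tested on simulated counts that spread less than these libraries, whose common dispersion was 0.653. That test does not show how well these fits find changes in these data. Alternatives were DESeq2 1.42.0, limma-voom with library weights, RLE size factors, no filter, a stricter filter (1 CPM in 3 libraries), detected genes as a covariate, other prior counts, a replicate block, and libraries left out. Every pair of libraries differed by more than sampling noise (chi-square at least 16.3 per degree of freedom).

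Named members are the 10 of highest mean, every member that passed and, where fewer than 4 passed, the 4 of smallest p in each comparison and for the ratios, 3 on each side of the threshold (1 of these is not reported here), and the 3 most and 3 least like their parent, each with its parent. 2 genes were named per other list. Rps2, the 1 parent that passed, was named after its values were seen. The pseudogenes and lists were chosen with earlier results of these data known.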

Additional observations from a re-analysis of the deposited data

Results flagged for a closer look

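Diabetes replicate 4 stood apart from the rest of its group in 2 sums of marker genes, by Dixon's criterion at the 95% level. Summed pituitary markers were at 866 CPM there, beside at most 9.80 CPM in diabetes replicates 1 to 3. Summed blood markers were at 1755 CPM there, beside at most 469 CPM in diabetes replicates 1 to 3. The criterion was applied to 42 values of the diabetes group, the only group with 4 libraries: the levels of 29 named copies, the copies' and parents' shares of counts, the number of detected genes and the 9 sums of marker genes. Chance gives about 1 such value in 20 groups, and 2 among 42 is near that rate. None of the shares or levels of the copies was among the 2. The part of the marker sums in the levels of the copies was not tested.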

How the results depend on the processing

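Counts of members called depended on the processing. Shares of all genes called were counted for edgeR's main fit, DESeq2, limma-voom and edgeR without the filter, and for no other fit. Shares of all pairs were counted for the main fit alone. In diabetes against control the count of 1 became 3 with RLE size factors, 42 with DESeq2, 48 with limma-voom, 35 without the filter, and 0 with the stricter filter, the covariate for detected genes, or without diabetes replicate 4 and curcumin replicate 2 together. In curcumin against diabetes the count of 4 became 18, 47, 13 and 44 under the first 4, and 0, 27 and 31 under the last 3. In garlic against diabetes the count of 0 became 36 with DESeq2, 36 with limma-voom and 27 without the filter. In curcumin against control it was 1 without those 2 libraries. Leaving out 1 library at a time gave 0 to 26, 0 to 45, 0 to 12, 0 to 1 and 0 to 0 in diabetes against control, curcumin against diabetes, garlic against diabetes, curcumin against control and garlic against control. For the pair ratios it gave 0 to 1, 0 to 5 and 0 to 2 in the first 3. Pair ratios called in curcumin against diabetes (0) became 2 with the covariate and 6 without the 2 libraries. Those in garlic against diabetes (1) became 3 without the filter and 0 with the covariate, a prior count of 0.5, or without the 2 libraries. The members' share of counts (0.871% as the mean over libraries) ranged over 0.802 to 0.909% with 1 library left out. Limma-voom with library weights moved the median of all genes by -0.25 in diabetes against control, 0.26 in garlic against diabetes and -0.14 in curcumin against control. The causes were not tested.

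The labels do not say that the replicate numbers pair the libraries. Deviations of same-numbered libraries correlated at -0.18 to 0.25 over 15 pairs, beside -0.37 to 0.37 for libraries of different number. With so few libraries in a group, and garlic deviations that mirror each other, these values cannot show whether the numbers pair the libraries. With the number as a replicate block, 0 members passed in diabetes against control and 9 in curcumin against diabetes, and 0 pair ratios passed in garlic against diabetes.

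Of the log2 changes of named genes, 13 changed sign under at least 1 alternative, 12 of them of parents, giving 36 values of reversed sign in all. The cause was not tested. These counts include pooled values, which belong to a parent and its copies together and not to the parent row alone. In diabetes against control Rpl35a (-0.11) was 0.31 with limma-voom, 0.57 with the covariate, 0.041 with the replicate block and 1.25 pooled with its copies, and -0.41 to 0.61 with 1 library left out. Rps10 (0.07) was -0.038 without the 2 libraries and -0.21 to 0.29 with 1 left out. In curcumin against diabetes Rps10 (-0.57) was -1.17 to 0.015 with 1 left out. In garlic against diabetes Rpl34 (-0.13) was -0.98 to 0.39 with 1 left out, Rpl35a (0.33) was -0.81 with the covariate, -1.29 pooled and -0.76 to 0.93 with 1 left out, and Rps15a (0.18) was -1.07 pooled. In curcumin against control Rpl5 (-0.44) was 0.36 pooled and -0.69 to 0.10 with 1 left out. Rpl9 (0.01) was -0.077 with limma-voom, -0.029 without the filter, -0.011 with the stricter one, -0.45 with the covariate, -0.27 pooled and -0.69 to 0.54 with 1 left out. In garlic against control Rpl10 (0.22) was -0.18 pooled and -0.45 to 0.70 with 1 left out, Rpl34-ps1 (-0.32) was -0.80 to 0.033, Rpl34 (0.32) was -0.14 with the covariate, -0.27 pooled and -0.52 to 0.85, Rpl38 (0.54) was -0.42 pooled and -0.60 to 1.58, and Rps10 (-0.32) was 0.072 with limma-voom and 0.067 with the replicate block. Rps10 had 0 counts in curcumin replicate 1, the cause of which was not tested.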

Other observations

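Ribosomal protein pseudogenes below the threshold were also read library by library. 52 of them averaged 0.1 to 1 CPM. Their median deviation from their own mean, as log2(CPM + 0.1), was 0.34 in garlic replicate 1 and 1.51 in garlic replicate 2, and with curcumin it was -0.83, -0.55 and -0.79 in replicates 1 to 3. In diabetes it was -0.47, -0.35, -0.64 and -0.33 in replicates 1 to 4, and in control -0.25, -0.53 and 1.37 in replicates 1 to 3. Garlic replicate 2 and control replicate 3 were the high libraries, as among the copies at 1 to 10 CPM, while all 4 diabetes libraries lay below 0. Their summed level was 42.4 CPM in garlic replicate 2 and 37.4 CPM in control replicate 3, and 7.55 to 22.7 CPM in the other libraries.

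Pseudogenes of other genes that are named after a parent (-ps) numbered 1251, of which 160 passed the filter. By edgeR 0 of them passed in any of the 5 comparisons. Counted at an unadjusted p under 0.05, diabetes against control gave 14 higher and 4 lower (median log2 change 0.08). At the same p there were 6 higher and 17 lower in curcumin against diabetes (median -0.19), and 3 higher and 14 lower in garlic against diabetes (median -0.07). In curcumin and in garlic against control 0 were higher or lower at that p. DESeq2 and limma-voom calls were not counted for this list.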
